A study of Caenorhabditis elegans with 15 samples.

Results

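Mitochondrial ribosomal protein genes encode the protein part of the ribosome that works inside mitochondria. They were taken as every protein-coding *Caenorhabditis elegans* gene whose symbol in the WBcel235 annotation begins with mrpl or mrps followed by a number. The rule found 70 of the 46926 genes listed, and all 70 such genes of the annotation were present, 41 named for the large subunit and 29 for the small subunit. The rule reads symbols alone, but the gene set was taken up with earlier results of these data known. Of the 70 genes, 41 carry the number of a bacterial ribosomal protein (mrpl up to 36, mrps up to 21) and 29 carry a higher number.

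The mitochondrial ribosome translates the few messages of mitochondrial DNA, which encode core subunits of the respiratory chain. Its RNAs are encoded by mitochondrial DNA, whereas its proteins are encoded in the nucleus, made by cytosolic ribosomes and imported. In *C. elegans*, lowering mrps-5 is known for an imbalance between nuclear and mitochondrial respiratory chain proteins, a mitochondrial stress response and a longer life. Mitochondria multiply strongly in the developing germ line and oocytes of this animal, and muscle is rich in them.

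The study measured polyA RNA of whole animals at the L4 larval stage by sequencing. Its groups were mec-8 (e398) KO, called e398 here (3 libraries), u74 KO (3 libraries), u218 KO (3 libraries) and wild type N2, called WT (6 libraries). All samples carry the strain name N2. The sample labels name no gene for u74 or u218 and do not describe the lesions. The deposited averages are named for MEC8 mutants as a group, so u74 and u218 may be alleles of mec-8, which the labels do not settle. The gene mec-8 encodes an RNA-binding splicing regulator of touch neurons, muscle and hypodermis. The labels do not say that the libraries of a group came from separate cultures.

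The deposited values are 1 average of normalized read counts for each gene and genotype, so a difference between genotypes carries no replicate error and could not be tested. A ratio is log2((average + 1)/(average + 1)), computed for genes with an average of at least 20 in either genotype, and a gene was counted as lower or higher at 2-fold or more. For e398, whole reads of each library could be recovered from the averages of most genes below 1000 normalized counts. None of the 70 genes could be resolved in this way in u74, u218 or WT. The recovered e398 libraries carry no label and are numbered by falling size factor.

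Library size factors, which are relative depths, were 0.685, 0.609 and 0.476 for the e398 libraries. They ran between 1.46 and 1.95 for u74 and between 0.831 and 1.99 for u218. Those of WT fell into a set of 1.82, 1.75 and 1.59 and a set of 0.531, 0.489 and 0.471. Of 11903 genes with resolved reads, e398 library 2 lay at least 4-fold from both other e398 libraries in 14.3%. The library of lowest depth in u218 did so in 32.8% of 7208 genes, and no u74 library did in more than 1.06% of 6720. These shares cover averages below 1000 in e398 but below 300 in u74 and u218, so their ranges are unlike. All 70 genes lay above 300 in u74 and u218. All 31 markers of 9 tissue lists, from intestine to oocyte, had reads in all 4 genotypes. Markers of reproductive tissue differed greatly in level: the 4 oocyte markers summed to 27220 normalized counts in e398, 215908 in u74, 9532 in u218 and 75235 in WT. In bulk samples, fewer cells of a type and less RNA per cell cannot be told apart.

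The 70 genes as a whole were least abundant in e398 and most abundant in u218. Their averages summed to 73011 normalized counts in e398, 183984 in u74, 240986 in u218 and 143329 in WT. As a share of each column's total this was 0.0576% in e398, 0.292% in u74, 0.350% in u218 and 0.147% in WT. The totals themselves differed, at 1.27e+08 in e398, 6.31e+07 in u74, 6.88e+07 in u218 and 9.72e+07 in WT. For each mutant the share therefore lies farther from WT than the sum does, and it is not independent of the sum. The median gene stood at 603 normalized counts in e398, 2406 in u74, 3175 in u218 and 1605 in WT. The lowest member was at 57.2 in e398, 736 in u74, 773 in u218 and 507 in WT, so that every gene was detected in every genotype. The highest and lowest member differed 104-fold in e398, against 8.52-fold in u74, 10.3-fold in u218 and 13.4-fold in WT.

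**Figure D1:**
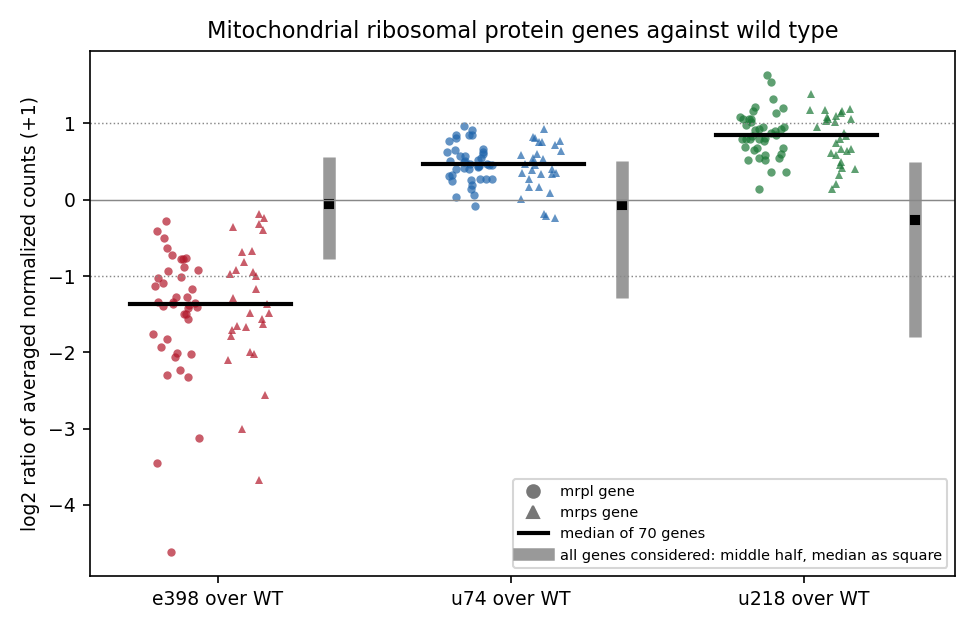
Log2 ratio of the averages for each of the 70 genes (circles large, triangles small subunit, black line the median) in e398, u74 and u218, each against WT; dotted lines mark 2-fold, and grey bars give the quartile range and median of all genes considered. All 70 points lie below 0 in e398 and above 0 in u218, while in u74 66 lie above 0 and none reaches 2-fold.

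Divided by exon length, so that levels can be set against each other, the most abundant of the genes in WT was mrps-14 with 4247 normalized counts per kilobase. It encodes a small subunit protein of the bacterial core and stood at 2405 per kilobase in e398, 4776 in u74 and 7109 in u218. It was followed in WT by mrps-27 (4120), mrps-30 (4014), mrpl-12 (3784) and mrps-5 (3773), values that lie close together and have no error to order them by. The lowest per kilobase in WT were mrps-31 (474), mrpl-42 (751) and mrpl-45 (780). Reads of mrpl-42 are uncertain, since 59.3% of its exon bases are shared with another gene. In all, 20 of the 70 genes share some exon bases with another gene, 13 of them on the opposite strand. The sources used here do not give strandedness. In 7 genes shared bases lie on the same strand. They include mrpl-42, mrps-16 (27.8%), mrps-18A (24.0%) and mrpl-1 (18.1%), whose reads are uncertain in the same way.

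In e398, all 70 genes were below WT and 48 were at least 2-fold lower, where 19.9% of all genes considered were 2-fold lower and 52.2% were below WT. None was 2-fold higher, where 11.4% of all genes were. The median ratio was -1.36, against -0.05 over all 17398 genes considered, and 15 genes were at least 4-fold lower, where 1342 of the 17398 were. Among the 8048 genes within the same range of WT averages, 22.2% were 2-fold lower, 583 were 4-fold lower, and the median was -0.22. The large subunit genes had a median ratio of -1.35, with 30 of 41 lower, and the small subunit genes one of -1.37, with 18 of 29 lower. Genes with a bacterial number had a median of -1.34 and genes with a higher number one of -1.37. Around the 2-fold line stood mrps-2, which was counted with 1091 in e398 and 2187 in WT, and mrps-18C, which was not, at a ratio of -0.98.

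The lowest ratio belonged to mrpl-45 (WBGene00022493, chromosome III, 1196389 to 1202008 on the minus strand of WBcel235), whose mammalian counterpart lies at the exit of the nascent chain and holds the ribosome to the inner membrane. Its 3 e398 libraries held 49.7, 103 and 48.4 normalized counts, from 34, 63 and 23 reads, against a WT average of 1669. All e398 libraries were thus far below WT, the second being the highest, and the ratio of the averages was -4.61 in e398. In u74 its average was 3007 and in u218 3476, both above WT.

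The small subunit gene mrps-31 held 49.7, 105 and 84.1 normalized counts in the e398 libraries, against 1025 in WT, a ratio of -3.67. The large subunit gene mrpl-46 held 110, 118 and 65.2 in e398, against 1077 in WT, a ratio of -3.45. The shortest of the 70 genes, mrpl-36, with 309 exon bases, encodes a very small large subunit protein of the bacterial core and held 43.8, 92.0 and 35.7 in e398, from 30, 56 and 17 reads, against 507 in WT. Its ratio was -3.13. In these 3 genes too, every e398 library lay at least 4-fold below the WT average, whichever library was highest.

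mrpl-12 encodes the protein of the flexible stalk that brings elongation factors to the ribosome. It held 460, 593 and 524 normalized counts in the e398 libraries, against 2478 in WT, a ratio of -2.24. mrps-12, the small subunit protein of the decoding centre, held 453, 427 and 484 in e398, against 1349 in WT, a ratio of -1.57. The spread between e398 libraries was small in both, 526 ± 66.5 for mrpl-12 and 454 ± 28.3 for mrps-12 (SD, n = 3), and no library came near the WT average. Another gene with a low ratio, mrps-25, chosen after its values were seen, held 152, 241 and 198 in e398, against 1583 in WT.

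At the other end stood genes of high level whose e398 averages were near WT. mrps-30, whose mammalian counterpart was found in the large subunit despite its name, averaged 5965 in e398 and 6780 in WT, a ratio of -0.18. mrps-22 averaged 4045 in e398 and 4784 in WT, a ratio of -0.24. mrpl-28 had a ratio of -0.29, mrps-15, which binds the small subunit RNA, one of -0.32, and mrps-5 one of -0.40, with an average of 4217 in e398 and 5558 in WT. These averages were too high for their libraries to be resolved, so no spread stands beside them.

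Of the 48 genes with an e398 average below 1000, 46 could be resolved into libraries, with 17 to 649 reads each; mrpl-16 and mrps-35 had more than 1 solution. In all 46 every e398 library was below the WT average, where 26.0% of 2692 resolved genes of like WT average had at least 1 library at or above it. In 38 of the 46 every library was at least 2-fold below WT, where this held for 39.9%, and in 8 every library was at least 4-fold below. For that 4-fold count the share of other genes was not computed. The 46 genes were picked by a low e398 average, so the counts describe how far the libraries lie together and add no support to the direction. Library 2 held the highest value in 35 of the 46 and library 1 the lowest in 30; among 7027 resolved genes of like e398 average library 2 was highest in 44.7%. The highest library exceeded the lowest by 1.07 to 2.57 times, with a median of 1.38. The median SD over libraries was 0.23 on the log2 scale, against 0.48 among those 7027 genes. That set includes the 46 and was not matched to them in level within its range. Summed over the 46 genes, the libraries held 17919, 22359 and 19913 normalized counts in e398, against 62040 in WT. By the mean of the libraries 43 of the 46 were at least 2-fold below WT, and 43 were without library 2.

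**Figure D2:**
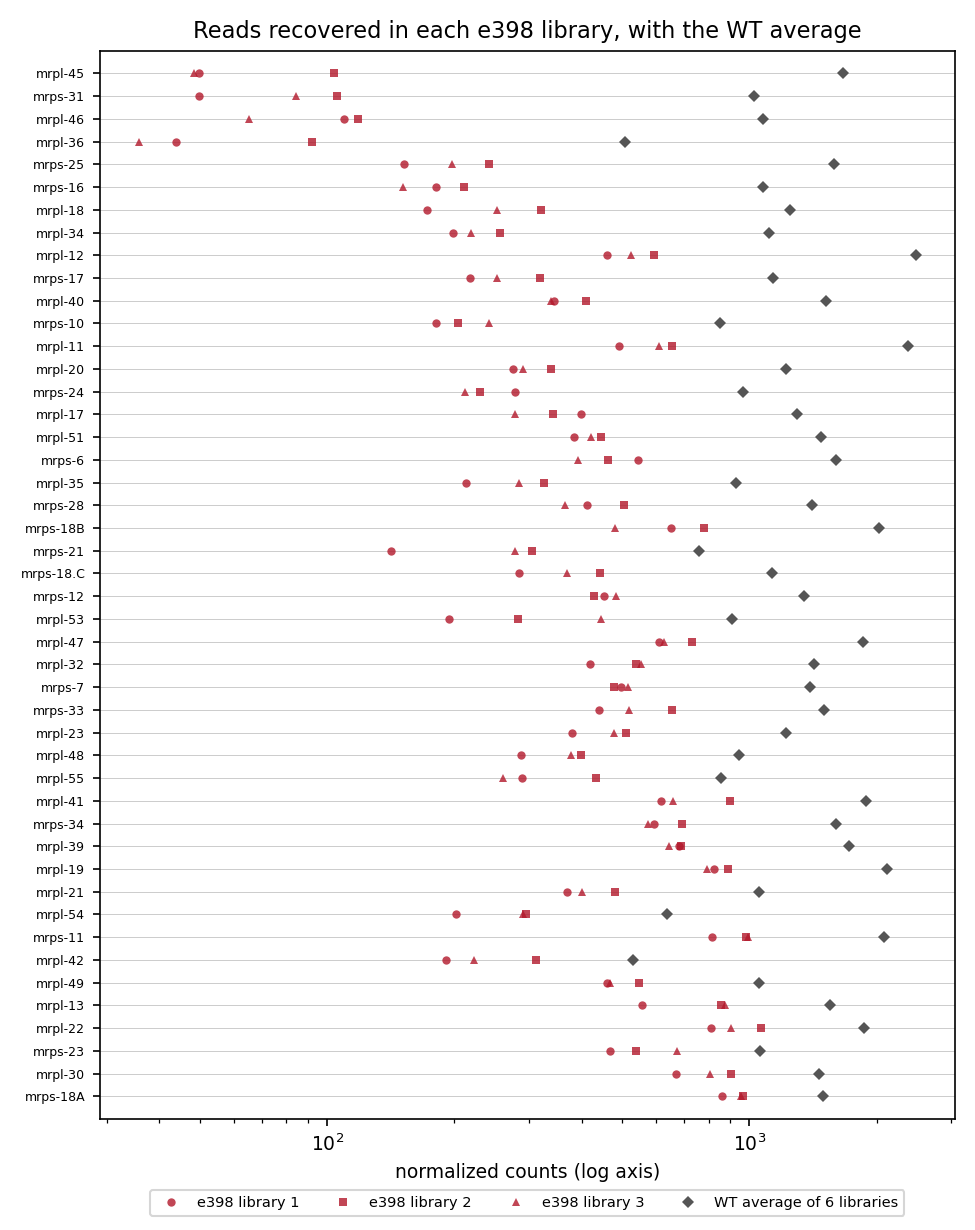
Normalized counts (log axis) of the 46 genes resolved in e398, one row per gene: 3 points for the e398 libraries and a separate mark for the WT average. In all 46 rows every e398 library lies left of the WT average, and library 2 is the highest in 35.

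In u74, 66 of the 70 genes were above WT and none was 2-fold higher or lower, where 6.47% of all genes considered were 2-fold higher, 29.0% 2-fold lower and 47.6% above WT. The median ratio was 0.47, against -0.07 over all 17004 genes considered. Large subunit genes had a median of 0.47 and small subunit genes one of 0.46. The largest ratios were those of mrpl-36 (989 in u74 and 507 in WT, 0.96), mrps-31 (1956 in u74 and 1025 in WT, 0.93), mrpl-46 (2030 in u74 and 1077 in WT, 0.91) and mrpl-45 (0.85). The 4 genes below WT were mrps-22 (-0.23), mrps-30 (-0.21), the PPR-type small subunit gene mrps-27 (5554 in u74 and 6350 in WT, -0.19) and mrpl-1 (-0.08), which encodes the protein of the stalk beside the tRNA exit. mrps-5 averaged 5906 in u74 and 5558 in WT, mrpl-12 averaged 3818 in u74 and 2478 in WT, and mrps-12 averaged 1895 in u74 and 1349 in WT.

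In u218, all 70 genes were above WT and 24 were 2-fold higher, where 10.4% of all genes considered were 2-fold higher and 42.2% above WT. None was 2-fold lower, where 35.8% of all genes were. The median ratio was 0.85, against -0.26 over all 17087 genes considered. With the averages rescaled so that the median of all genes is 0, or by TMM factors, 45 of the 70 were 2-fold higher and none lower, so the count of 24 rests on the authors' size factors. The large subunit had 12 of 41 genes higher and a median of 0.85, and the small subunit 12 of 29 and a median of 0.84.

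The largest u218 ratio was that of mrpl-36, which averaged 1581 in u218 and 507 in WT, a ratio of 1.64. It was followed by mrpl-46 (3149 in u218 and 1077 in WT, 1.55), mrps-31 (2675 in u218 and 1025 in WT, 1.38) and mrpl-49 (2621 in u218 and 1051 in WT, 1.32), a large subunit gene with a number above those of bacteria. The smallest were mrps-30 (7477 in u218 and 6780 in WT, 0.14), mrpl-1 (4287 in u218 and 3882 in WT, 0.14), mrps-22 (5500 in u218 and 4784 in WT, 0.20) and mrps-27 (7931 in u218 and 6350 in WT, 0.32). mrpl-12 and mrps-12 stood just past 2-fold, at 1.06 and 1.05, and mrps-5 at 0.45, with 7603 in u218 and 5558 in WT. Around the 2-fold line, mrpl-15 was counted at 1.02 and mrpl-16 was not at 0.98. The u218 library that stood apart in 32.8% of resolved genes could not be left out for these genes, because their u218 averages could not be resolved.

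The 3 comparisons share the WT column, so their likeness is no independent finding, and the pairs of mutants are free of WT, although they share mutant columns among themselves. In u74, 69 of the 70 genes were above e398, where 46.5% of all genes considered were, and 58 were 2-fold higher, where 27.8% were. The median ratio of u74 over e398 was 1.80, and it ran from -0.03 (mrps-30, 5860 in u74 and 5965 in e398) to 5.46 (mrpl-45, 3007 in u74 and 67.2 in e398). In u218 all 70 were above e398, where 46.1% of all genes were, and 62 were 2-fold higher, where 26.9% were, with a median of 2.30 and a range from 0.33 (mrps-30) to 5.67 (mrpl-45). Between u218 and u74 none was 2-fold different, where 18.7% of all genes were 2-fold higher and 20.6% 2-fold lower. There, 69 of 70 were above u74, where 55.3% of all genes were, with a median of 0.38 and a range from -0.12 (mrpl-51, 2367 in u218 and 2578 in u74) to 0.69 (mrpl-49, 2621 in u218 and 1625 in u74).

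The size of the difference moved with gene length. Across the 70 genes, the Spearman correlation of exon bases with the ratio to WT was 0.52 for e398, -0.43 for u74 and -0.46 for u218, where it was 0.14, -0.05 and 0.01 across the 8048 genes of like WT average. These are correlations across genes of the same libraries, given as a description. Of the 29 genes under 700 exon bases, 28 were 2-fold lower in e398, with a median ratio of -1.71; of 868 other coding genes of that length and like WT average 42.7% were lower, with a median of -0.69. Of the 19 genes of 700 to 1000 bases 13 were lower, with a median of -1.13, against 35.5% and -0.56 among 1040 other genes. Of the 22 longer ones 7 were lower, with a median of -0.77, against 722 of 4007 other genes of like length and a median of -0.22. Shorter genes therefore had the lower e398 ratios both among the 70 and, less steeply, among other genes. The long genes mrpl-45 (2140 bases), mrps-31 (2164) and mrpl-46 (1277) stood outside this order, with the 3 lowest ratios of all. The labels give no RNA quality or fragment length, and the part of length in the ratios was not tested.

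**Figure D3:**
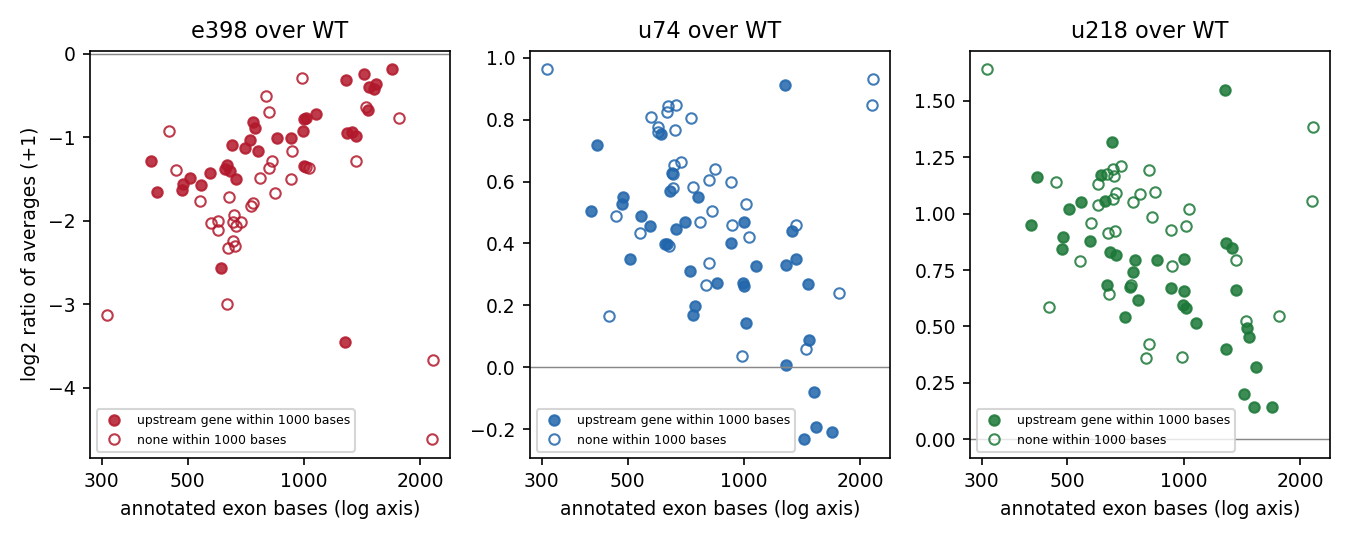
Log2 ratio to WT against exon bases for the 70 genes in e398, u74 and u218; filled points have a coding gene upstream on the same strand within 1000 bases, open points have none. In e398 short genes lie lowest apart from mrpl-45, mrps-31 and mrpl-46, and most points at least 4-fold below WT (13 of 15) are open.

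Many *C. elegans* genes are transcribed in operons, in which a downstream gene follows its neighbour closely on the same strand. Of the 70 genes, 36 (51.4%) had a coding gene upstream on the same strand within 1000 bases, where 33.5% of 7935 coding genes of like WT average did, and in 19 the gap was 81 to 120 bases. Examples, chosen after their positions were seen, are mrpl-4, which begins 105 bases after mrps-2, and mrps-22, which begins 105 bases after dap-3, itself a small subunit gene under another name. In e398 the median ratio was -1.02 for the 36 genes with such a neighbour and -1.74 for the 34 without, where other coding genes of like WT average had -0.36 and -0.13. Of the genes at least 4-fold lower, 2 had such a neighbour (mrps-16 and mrpl-46) and 13 did not; of the other coding genes of like WT average, 160 of 2626 with a neighbour and 404 of 5239 without were 4-fold lower. With a gap of 500 bases, chosen after the values were seen, none of 29 genes with a neighbour was 4-fold lower and 15 of the 41 others were. That cut moves mrps-16 (gap 556) and mrpl-46 (gap 897) to the other side, so the cleaner split follows from its choice and adds no support. Under 700 exon bases alone the medians were -1.48 for 13 genes with a neighbour and -2.02 for 16 without. In u74 the medians were 0.37 with a neighbour and 0.59 without, where other coding genes of like WT average had 0.28 and 0.01. In u218 they were 0.77 with one and 1.00 without, where those other genes had -0.10 and -0.15. The split was not tested.

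WT stood between e398 and u74 for 66 of the 70 genes, where it did for 81.5% of the 8048 genes of like WT average. The 4 others were mrpl-1, mrps-22, mrps-27 and mrps-30. The count of 66 follows from those given for e398 and u74 against WT and adds nothing to them. WT was also close to the plain mean of the 2 mutant averages. The WT average divided by that mean had a median of 1.10 and ran from 0.969 to 1.24 over the 70 genes, with an SD of 0.085 on the log2 scale, against an SD of 0.42 over the 8048 genes. For mrpl-45 the mean of e398 and u74 was 1537, against 1669 in WT. A WT average near that mean limits the ratio of u74 to WT to about 2-fold when e398 is near 0, and the largest u74 ratio was 0.96.

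The 6 WT libraries had fallen into sets of high and of low size factor, and they could be resolved only for genes with a WT average of 3 to 8, none of them among the 70. In 2144 such genes, the ratio of the high set to the low set within WT was compared with the ratio of u74 to e398. The Spearman correlation was 0.71, and the signs were the same in 1818. However, the log2 ratio of the high to the low set had a median of -1.91 and an upper quartile of -0.12. Most of these genes thus lay on 1 side, and no base share of equal signs was computed. In the 934 protein-coding ones the correlation was 0.67, the signs were the same in 729, and the median was -0.74. These are genes of 1 table that share its size factors, and the values are a description. Whether the reads of the 70 genes came evenly from both WT sets could not be resolved, so a difference between each mutant and WT and a difference among the WT libraries cannot be told apart for them. The ratios between mutants do not use WT, but the same limit reaches them. Size factors were 0.476 to 0.685 in e398, near the low WT set, and 1.46 to 1.95 in u74, near the high set. For u74 against e398, a difference of genotype and a difference between such sets of libraries therefore cannot be told apart either. Those of u218 ran from 0.831 to 1.99.

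**Figure D4:**
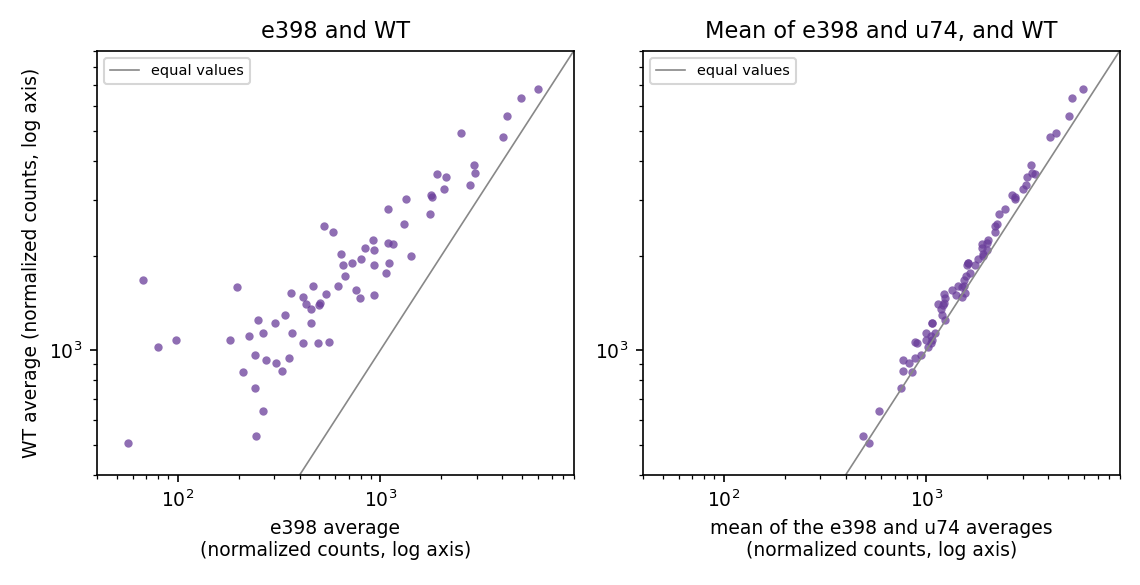
WT average of the 70 genes on log axes, in one panel against the e398 average and in the other against the mean of the e398 and u74 averages; the line marks equal values. The points are widely scattered in the first panel, while in the second they lie within 0.969 to 1.24 times the line.

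The other lists of the mitochondrial pathway were set out in the same way. Their counts stand against these shares of all genes considered: 19.9% 2-fold lower and 11.4% higher in e398. The shares were 29.0% lower and 6.47% higher in u74, and 35.8% lower and 10.4% higher in u218. Of 14 import genes, which bring these proteins into mitochondria, 13 passed the level filter; 11 were 2-fold lower in e398 and none higher, with a median of -2.02. The small inner-space chaperones tin-9.1 (54.4 in e398 and 827 in WT, -3.90) and ddp-1 (153 in e398 and 2150 in WT, -3.81) were lowest. In u74 none was 2-fold different, with a median of 0.55, and in u218 5 were higher, with a median of 0.88, led by tomm-7, a subunit of the outer membrane channel (1268 in u218 and 470 in WT, 1.43), and ddp-1 (1.26).

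Of 66 nuclear-encoded respiratory chain genes 64 passed the filter. In e398 42 were 2-fold lower and none higher, with a median of -1.36, the same to 2 decimals as that of the 70 ribosomal protein genes. The lowest were the cytochrome oxidase gene cox-7C (663 in e398 and 8483 in WT) and the complex I gene ndua-1 (146 in e398 and 1808 in WT). In u74 1 was lower, atp-1, the alpha subunit of ATP synthase, at 153202 in u74 and 612583 in WT, with a list median of 0.44. In u218 28 were higher and 2 lower, with a median of 0.92; cox-10 had a ratio of 1.52 and atp-1 one of -1.48. atp-1 averaged 880896 in e398, above WT, unlike most of its list.

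The 81 cytosolic ribosomal protein genes, which make up the other ribosome of the cell, showed larger ratios. In e398 75 were 2-fold lower and 1 higher, with a median of -1.98, the lowest being rpl-29 (292 in e398 and 13593 in WT) and rps-28 (396 in e398 and 12317 in WT). In u74 2 were lower, rpl-12 and rpl-7A, with a median of 0.72. In u218 72 were higher and 3 lower, with a median of 1.31, where rpl-42 had a ratio of -3.64 and rpl-11.2 one of 2.02. The mitochondrial and cytosolic sets thus lay on the same side of WT in each mutant by their medians, with the cytosolic one farther from 0; the difference between the lists was not tested.

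**Figure D5:**
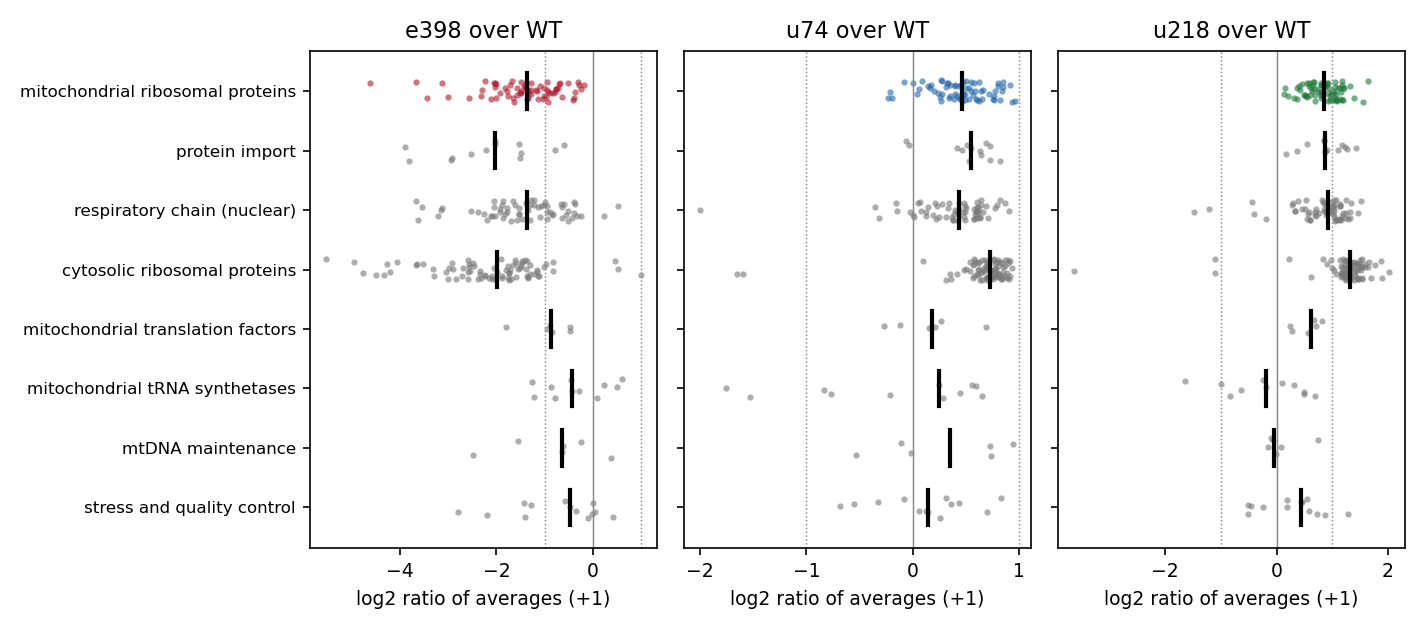
Log2 ratio to WT of the genes of each mitochondrial list and of the cytosolic ribosomal proteins in e398, u74 and u218, with the median of each list marked. The median of the 70 genes is -1.36 in e398, 0.47 in u74 and 0.85 in u218, nearer to 0 in e398 than those of import (-2.02) and cytosolic ribosomal proteins (-1.98), and farther than that of the tRNA synthetases (-0.42).

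Translation factors help the mitochondrial ribosome start, extend and end its chains. Of 11 translation factors named for the list, 6 were matched by symbol. Of these 1 was 2-fold lower in e398, a share near the 19.9% of all genes. Their median was -0.87, where the ribosomal protein genes of 1000 or more exon bases had -0.77. The factors had 781 to 2409 exon bases. The lower gene was mrrf-1, the ribosome recycling factor (187 in e398 and 652 in WT, -1.79), followed by the elongation factor Tu gene tufm-2 (1777 in e398 and 3425 in WT, -0.95). dap-3 stood at -0.89 for e398, at 0.21 for u74 and at 0.71 for u218. The list's medians were 0.18 in u74 and 0.62 in u218, with no gene 2-fold different in either.

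Of 11 mitochondrial tRNA synthetases matched, which charge tRNAs for this ribosome, 2 were 2-fold lower in e398, sars-2 (-1.26) and nars-2 (-1.21), with a median of -0.42. In u74 2 were lower, aars-1 (2282 in u74 and 7712 in WT, -1.76) and ears-2 (1602 in u74 and 4618 in WT, -1.53), with a median of 0.25. In u218 aars-1 was lower (-1.64), with a median of -0.19. The share lower was near the 19.9% of all genes in e398, and under the 29.0% in u74 and the 35.8% in u218. Among 6 genes of mitochondrial DNA upkeep, the single-strand binding protein gene mtss-1 (344 in e398 and 1929 in WT, -2.49) and hmg-5, the TFAM homologue that packages the DNA (480 in e398 and 1405 in WT, -1.55), were lower in e398. None of the 6 was 2-fold different in u74 or u218, where the medians were 0.36 and -0.04.

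Of 13 mitochondrial stress and quality control genes, 5 were 2-fold lower in e398, with a median of -0.47. The lowest were ubl-5, a factor of the mitochondrial unfolded protein response (68.9 in e398 and 482 in WT, -2.79), and the matrix chaperone gene hsp-6 (6193 in e398 and 28307 in WT, -2.19). The other chaperone gene, hsp-60, had a ratio of -0.47 in e398, and the response's transcription factor gene atfs-1 one of -0.35. In u74 none was 2-fold different, with a median of 0.15, and in u218 ubl-5 alone was higher (1.29), with a median of 0.44.

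Messages translated by the mitochondrial ribosome were hardly represented. Of 12 protein-coding genes of mitochondrial DNA, 11 were listed at 0 in all 4 columns, as were both mitochondrial rRNA genes. The remaining one, WBGene00000829, averaged 2149 in e398, 2395 in u74, 4081 in u218 and 2883 in WT. A list at 0 in every genotype gives no level, so nuclear and mitochondrial parts of the ribosome could not be set against each other.

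Markers of other tissues moved with the genotypes beside these differences. Germline markers (4 genes) summed to 84479 normalized counts in e398, 93147 in u74, 50350 in u218 and 84445 in WT. Adult yolk protein genes (3) summed to 160560 in e398, 1039440 in u74, 2706 in u218 and 406359 in WT. Sperm markers (4 genes) summed to 62294 in e398, 16442 in u74, 216 in u218 and 15810 in WT. Body wall muscle markers (3 genes) summed to 2071060 in e398, 609252 in u74, 652859 in u218 and 1395090 in WT, and neuronal markers (4) to 4172 in e398, 11853 in u74, 16942 in u218 and 8468 in WT. Hypodermis markers (3 genes) summed to 17621 in e398, 15405 in u74, 88308 in u218 and 23068 in WT, and all 3 were 2-fold higher in u218. Intestine markers (4) summed to 67158 in e398, 86072 in u74, 178607 in u218 and 102648 in WT, and pharynx markers (2) to 107976 in e398, 52778 in u74, 45093 in u218 and 78588 in WT. In e398, where the ribosomal protein genes were below WT, the oocyte, yolk, neuron, intestine and hypodermis sums were below WT too, the germline sum was near WT, and the sperm, muscle and pharynx sums were above it. In u74 and u218, where the ribosomal protein sum was above WT, the neuronal sum was above WT in both, the oocyte, yolk, germline and sperm sums only in u74, and the hypodermis and intestine sums only in u218; the muscle and pharynx sums were below WT in both. The parts of tissue makeup and of developmental stage in the ratios were not tested. All groups are given as L4, and how closely they matched in stage is not known here.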

How the data were processed

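Libraries of polyA RNA from whole L4 animals were sequenced by the authors. The deposited table holds a signal per gene and genotype: per its name, averages of normalized counts over the libraries of each genotype. Per the submitters' processing notes, bedtools, HTSeq, DESeq and DESeq2 were used; versions, strandedness, aligner, build and annotation: not given in the sources used here. No column was left unused (0).

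All 46926 identifiers matched WBcel235 (Ensembl release 115), which gave symbols, positions and exon bases. Ratios were log2((average + 1)/(average + 1)) for averages of at least 20 in either genotype, called at 2-fold. These averages have no replicate error, so no p-value was computed; the planned limma test of mutant libraries could not be fitted, because no member was resolved in u74 or u218.

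The smallest values fall on steps worth 1 read in 1 library, which gave the size factors. For e398 averages of 57 to 1000, 96.75% of 7263 values had exactly 1 solution in whole reads, 227 had several and 9 none; values moved off their place had 1 or more in 5.65%. On simulated e398 averages below 1000, 98.92% were resolved, and 100% of these returned the drawn reads. The simulated averages were drawn from all levels below 1000, not from 57 to 1000 alone. They were made and solved with the same size factors, so error in those factors was not examined. Usable limits were 300 in u74 and u218 and 8 in WT.

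Named genes are the 4 highest and 4 lowest members per comparison with WT, the 5 highest and 3 lowest per kilobase, mrps-5, mrpl-12 and mrps-12, and the 2 largest ratios of each list at averages of 100 or more; others are marked in the text or stand at a threshold, end a range or belong to a short count. The members and the 9 lists were chosen with earlier results of these data known. Python 3.11.15, numpy 2.4.6, pandas 2.3.3, scipy 1.17.1, numba 0.67.0 and matplotlib 3.10.9 were used.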

Additional observations from a re-analysis of the deposited data

How the results depend on the processing

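Alternatives were other pseudocounts (0.5 and 10), no filter, a filter of 100 and a 1.5-fold threshold. Further ones were recentring on the median of all genes, TMM factors and leaving out e398 libraries, the last added after the data were seen. Of 129 values 117 stayed within the limits set and none changed direction. Many of the 117 could not have moved. The filter settings drop no member, since all averages in WT, u74 and u218 were at least 507. A median does not depend on the fold threshold. The genes 2-fold higher in u74 than in WT, 0 as reported, numbered 21 at 1.5-fold, 1 when recentred and 7 with TMM factors, where 21.2%, 7.96% and 11.6% of all genes were higher. Those in u218, 24 as reported, numbered 55 at 1.5-fold (21.9% of all genes) and 45 when recentred (17.3%) or with TMM factors (18.6%), and the u218 median became 1.11 when recentred and 1.16 with TMM factors. The median of u74 over e398 became 2.05 with TMM factors, that of u218 over e398 2.54 when recentred and 2.67 with TMM factors, and 11 of the 70 genes were higher in u218 than in u74 at 1.5-fold, a smaller share than the 33.5% of all genes. The counts thus depend on the threshold and, like the medians, on how the averages were scaled. Which scaling fits these libraries best was not tested. The genes 2-fold lower in e398 than in WT numbered 45 to 50 across the settings with that threshold, and 62 were lower at 1.5-fold. Leaving out each e398 library in turn left 40 to 43 of the 46 resolved genes at least 2-fold below WT by their mean, 43 with all 3. No paired analysis was possible because the averages carry no replicate numbers. Limma with and without a replicate block was not run, because no member was resolved in u74 or u218. Depth limits the lowest e398 values, down to 17 reads per library; WT, u74 and u218 values have no spread at all.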
